A study of Ovis aries with 4 samples.

Results

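LPL, FABP4, FABP3 and PLIN2 act in the uptake and storage of fatty acids. They are 4 of the 20150 genes in the deposited count files and 4 of the 774 that carry a symbol there. They were chosen by name and not by a cut on a measured value, but with earlier results of these data known. Their levels were followed across groups of mammary cells and across the stages of lactation. The tissue came from 4 lactating ewes and was profiled on the 10x droplet platform, in which each captured transcript receives the barcode of its cell and a molecular identifier (UMI), so that single molecules are counted. The 4 libraries, 1 per ewe, were titled LH replicates 1 and 2 and LL replicates 1 and 2. The series abbreviates late lactation as LL; LH is not spelled out in the labels and was read as peak lactation, the only other stage the series names. The sample is whole mammary gland, and the labels used here name no age, breed or treatment of the ewes.

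Milk fat is made from fatty acids that the gland either synthesises or takes up from blood. Lipoprotein lipase (LPL) releases fatty acids from circulating lipoproteins at the capillary wall, and it is often made by cells other than the endothelium on which it acts. Fatty acid-binding proteins carry fatty acids inside cells: FABP4 is best known from adipocytes and capillary endothelium, and FABP3 from heart, muscle and the lactating mammary epithelium. Perilipin 2 (PLIN2) coats cytoplasmic lipid droplets, the stores from which milk fat globules form in secretory cells.

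Cells were grouped by UMIs of marker genes, and these groups are called gates; they are ranges of marker counts, not cell types. The EPCAM/CLDN4 gate took cells with at least 2 UMIs of these epithelial junction and adhesion genes together. The EDNRA/IGFBP7 gate took cells with at least 1 UMI of EDNRA (the endothelin A receptor) and at least 3 of EDNRA and IGFBP7 together. At least 2 UMIs were asked of RELN, of SELP and KDR together (endothelial P-selectin and a VEGF receptor), of C1QA (a macrophage complement gene) and of CD3E, CD247 and LCK together (T cell receptor signalling). The SELP/KDR gate also asked for fewer than 2 RELN UMIs. Cells with at least 2 RELN UMIs that passed for SELP and KDR too therefore stayed in the RELN gate. The DCN gate, for the matrix proteoglycan decorin, asked for at least 5 UMIs and at least 10 per 10000 UMIs of the cell. Of 35709 cells kept after filtering, 16865 (47.2%) passed a single gate, 17313 (48.5%) passed none, and 1531 passed several and were left out of the gates. None of the 4 genes was used in gating.

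Depth and cell numbers were uneven. The libraries held 28015149 to 65339993 UMIs and 5595 to 11365 kept cells, and any pair of libraries shared 15 to 39 barcodes. EPCAM/CLDN4-gated cells had a median of 9167 to 13741 UMIs per cell in the 4 libraries, against 2585.5 to 3526 in the T cell gate. The gates held 255, 1923, 625 and 1793 cells (EPCAM/CLDN4), 259, 1554, 1174 and 964 cells (EDNRA/IGFBP7) and 1535, 307, 466 and 340 cells (T cell) in LH replicates 1 and 2 and LL replicates 1 and 2, the order used for every set of 4 values from here on. The C1QA gate held 225, 423, 256 and 123 cells, the DCN gate 223, 29, 1905 and 1116, and the RELN gate 40, 61, 446 and 191. The SELP/KDR gate held 2, 34, 543 and 53 cells, so its LH values rest on very few cells and its first LH library was left out of every comparison.

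Markers not used in gating were set against each gate. Luminal markers (6 of 10 listed had a symbol, among them the milk protein genes PAEP and LALBA) summed to 5826 to 9333 UMIs per 1000000 UMIs of the gate (CPM) in the EPCAM/CLDN4 gate and to 79.6 to 535 CPM in the EDNRA/IGFBP7 gate. The mural and contractile markers (5 of 10, among them TPM1 and CNN1) summed to 2437 to 4288 CPM in the EDNRA/IGFBP7 gate, but also to 2294 to 3139 in the RELN gate, 1469 to 3651 in the DCN gate and 1046 to 1662 in the SELP/KDR gate. Fibroblast markers (4 of 8) reached 10851 to 12418 CPM in the DCN gate and at most 1391 in any other gate. SELE, an endothelial adhesion gene and the single blood endothelial marker with a symbol, went against the label of the SELP/KDR gate in LH: it was at 0 in both LH libraries, 225 CPM in LL replicate 1 and 12.5 CPM in LL replicate 2. The 34 SELP/KDR-gated cells of LH replicate 2 held SPP1 at 2661 and LTF at 1164 CPM, both luminal milk genes, so they cannot be read as endothelium. Adipocyte markers (ADIPOQ, PLIN1 and LIPE, 3 of 5 listed) summed to 0 to 22.7 CPM in all gates with at least 20 cells in a library.

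Against the T cell gate, which served as the measured background, the genes took different gates. Counts were summed per library and gate and compared within ewes by edgeR's quasi-likelihood test over 11485 genes, with Benjamini-Hochberg adjustment. LPL, FABP4 and PLIN2, 3 of the 4 genes, were higher in the EDNRA/IGFBP7 gate than in the T cell gate (29.3% of all genes called higher). In the EPCAM/CLDN4 gate PLIN2 alone was higher (33.2% of all genes called higher). FABP4 and PLIN2 were higher in the SELP/KDR gate (22.4%), FABP4 alone in the RELN gate (24.2%), and LPL and PLIN2 in both the C1QA gate (22.3%) and the DCN gate (28.4%). None of the 4 was called lower than in the T cell gate, where the shares of all genes called lower were 25.5% (EDNRA/IGFBP7), 25.9% (EPCAM/CLDN4), 18.5% (SELP/KDR), 19.8% (RELN), 21.1% (C1QA) and 25.5% (DCN). So large a share of all genes differed between gates that a call by itself says little, and the sizes and the values per library are given below.

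**Figure D1:**
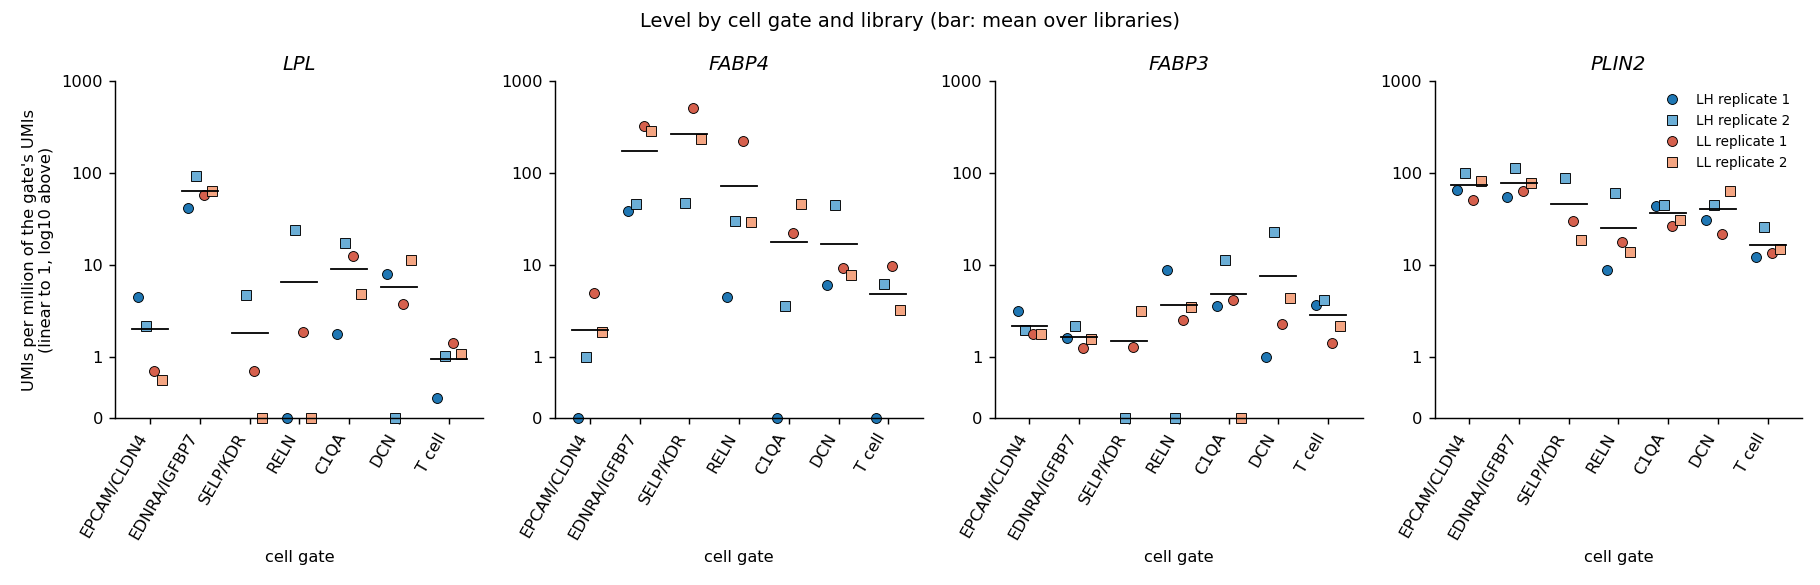
Level of LPL, FABP4, FABP3 and PLIN2 (CPM, linear up to 1 and on a log10 scale above) in each cell gate; every point is 1 library with at least 20 gated cells, blue for LH and red for LL, and the bar is the mean over libraries. LPL stands highest in the EDNRA/IGFBP7 gate (41.3 to 93.0). FABP4 stands highest in the EDNRA/IGFBP7 gate, with LL above LH, and in the SELP/KDR gate, where LH is 1 library of 34 cells. FABP3 stays low in every gate, and PLIN2 is spread over all of them.

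LPL, the lipase, was carried by EDNRA/IGFBP7-gated cells in all 4 ewes. Its level there was 41.3, 93.0, 57.1 and 63.8 CPM, and in the T cell gate 0.33, 1.03, 1.41 and 1.07 CPM. Every EDNRA/IGFBP7-gated sum lay above every sum of the other gates, the highest of which was 24.2 CPM from 4 UMIs in the RELN gate of LH replicate 2. The difference from the T cell gate was 6.15 ± 0.74 on the log2 scale (SE; edgeR adjusted p = 2.47e-07), although the T cell gate held only 6 LPL UMIs in 2648 cells. Of 2403 LPL UMIs in all, 36.3% lay in this gate and 49.0% in ungated cells.

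The ungated LPL UMIs followed IGFBP7 as well. Ungated cells with at least 2 IGFBP7 UMIs, a split made after the levels were seen, held 75.6%, 78.5%, 79.5% and 61.6% of them, at 35.7, 85.8, 53.8 and 64.4 CPM. These levels lie close to those of the gate itself in each library, and the other ungated cells held 1.30, 18.7, 7.33 and 16.6 CPM. LPL was at 72.8 CPM in the 532 cells with 2 UMIs of EDNRA and IGFBP7, just outside the gate, and at 64.8 CPM in the 521 cells with 3, just inside it.

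Per cell, LPL was sparse. In the EDNRA/IGFBP7 gate 13.5%, 22.3%, 16.8% and 14.8% of cells had at least 1 LPL UMI, against 0.130%, 0.326%, 0.429% and 0.294% of T cell-gated cells at similar median depths (2416.5 to 3859 and 2585.5 to 3526 UMIs). After every cell was thinned to 1000 UMIs the shares were 4.28%, 9.44%, 6.30% and 7.17%. Most positive cells held a single UMI, and the highest count in this gate was 7. TPM1 (a tropomyosin of contractile cells) did not divide the LPL-positive cells in a steady way: cells with TPM1 were LPL-positive in 3.30%, 10.2%, 7.0% and 5.83% of cases after thinning, and cells without it in 6.67%, 7.51%, 5.47% and 8.81%.

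LPL in the other gates was low and lay in few cells. The C1QA gate had 1.77, 17.4, 12.4 and 4.79 CPM, a log2 difference of 3.56 ± 0.89 from the T cell gate (edgeR adjusted p = 0.00245) and 2.58 ± 0.53 below the EDNRA/IGFBP7 gate (edgeR adjusted p = 0.000273; 26.3% of all genes were higher in the latter). Of 29 LPL UMIs in C1QA-gated cells of LH replicate 2, 13 were in 1 cell; without that cell the level was 9.63 CPM. The DCN gate had 8.01, 0, 3.72 and 11.2 CPM (3.11 ± 0.90 above the T cell gate, edgeR adjusted p = 0.0056); the 0 comes from 29 cells. Leaving out LL replicate 2 ended that call (log2 2.68, edgeR adjusted p = 0.0529), and so did keeping the doublet calls (1.45, 0.129). In the SELP/KDR gate LPL had 0, 1, 3 and 0 UMIs in 632 cells, so few LPL UMIs were found there. For LL replicate 2, 0 of 53 cells allows a share of cells with a UMI of up to 5.66%, which does not limit the share of cells that express the gene.

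EPCAM/CLDN4-gated cells, the gate with the milk protein genes, held little LPL. They had 4.49, 2.18, 0.762 and 0.624 CPM, from 20, 55, 6 and 14 UMIs, and their difference from the T cell gate did not pass (log2 1.09 ± 0.95, edgeR adjusted p = 0.338). Both LH libraries lay above both LL libraries, and 1 cell held 11 of the 55 UMIs in LH replicate 2. By level, the order of the gates for LPL was EDNRA/IGFBP7 (mean 63.8 CPM), C1QA (9.09), RELN (6.51), DCN (5.74), EPCAM/CLDN4 (2.01), SELP/KDR (1.82) and T cell (0.959). Of neighbours in this order, EDNRA/IGFBP7 and C1QA differed, as did DCN and EPCAM/CLDN4 (log2 2.03 ± 0.61, edgeR adjusted p = 0.00763; 24.1% of all genes called higher; 1.15 and 0.264 without LL replicate 2). The others did not differ beyond their spread.

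FABP4, the binding protein of capillary endothelium and adipocytes, was carried by EDNRA/IGFBP7-gated and SELP/KDR-gated cells. In the EDNRA/IGFBP7 gate it was at 38.1, 45.5, 323 and 286 CPM, with both LL libraries far above both LH libraries. The SELP/KDR gate had 46.9 CPM in LH replicate 2, 515 in LL replicate 1 and 231 in LL replicate 2. The T cell gate had 0, 6.15, 9.84 and 3.22 CPM. The EDNRA/IGFBP7 gate stood 5.17 ± 0.71 above the T cell gate on the log2 scale (edgeR adjusted p = 1.74e-06) and the SELP/KDR gate 5.38 ± 0.76 (edgeR adjusted p = 4.43e-06; 3 against 4 libraries).

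The RELN gate had 4.43, 30.2, 223 and 29.4 CPM, with LL replicate 1 standing apart. Its difference from the T cell gate was 3.76 ± 0.78 (edgeR adjusted p = 0.000363), and without LL replicate 1 it was 2.60 and no longer passed (edgeR adjusted p = 0.105). The order by mean level was SELP/KDR (264 CPM), EDNRA/IGFBP7 (173), RELN (71.8), C1QA (17.8), DCN (17.1), T cell (4.80) and EPCAM/CLDN4 (1.95). The SELP/KDR mean is over 1 LH and 2 LL libraries and the others over 2 of each. Compared within ewes, the SELP/KDR gate stood 0.21 ± 0.58 above the EDNRA/IGFBP7 gate on the log2 scale (edgeR adjusted p = 0.855). In LL replicate 2 the EDNRA/IGFBP7 gate was the higher. Among neighbours, only RELN and C1QA differed (log2 2.11 ± 0.71, edgeR adjusted p = 0.0187; 22.2% of all genes called higher), and not without LL replicate 1 (0.54, 0.737), without LH replicate 2 (1.87, 0.0564), with looser gates (1.23, 0.14) or without the term for the ewe (2.54, 0.0669). EDNRA/IGFBP7 against RELN had a log2 difference of 1.41 ± 0.59 (edgeR adjusted p = 0.0801), which passed without LL replicate 1 (2.70, 0.0379), with stricter gates (1.64, 0.0368) and with doublet calls kept (1.57, 0.0349).

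Within the SELP/KDR gate most FABP4 UMIs lay in the cells with SELP. In LL replicate 1 the 400 SELP/KDR-gated cells with a SELP UMI held 94.8% of the gate's 2000 FABP4 UMIs, at 629 CPM, and the 143 cells without SELP were at 119 CPM. In LL replicate 2, 8 cells with SELP held 70 of 74 FABP4 UMIs, of which 59 were in 1 cell. In LH replicate 2 all 10 FABP4 UMIs were in 1 of the 5 cells with SELP. The same split was seen in the RELN gate of LL replicate 1, where 85 cells with SELP held 91.9% of 713 FABP4 UMIs at 450 CPM and the other 361 cells stood at 33.4 CPM. Those 85 cells had a median of 12715 UMIs against 2976 in the rest of that gate, a depth at which the part of droplets with 2 cells was not tested. Without SELP the RELN-gated cells had 4.43, 31.2, 33.4 and 29.6 CPM.

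**Figure D2:**
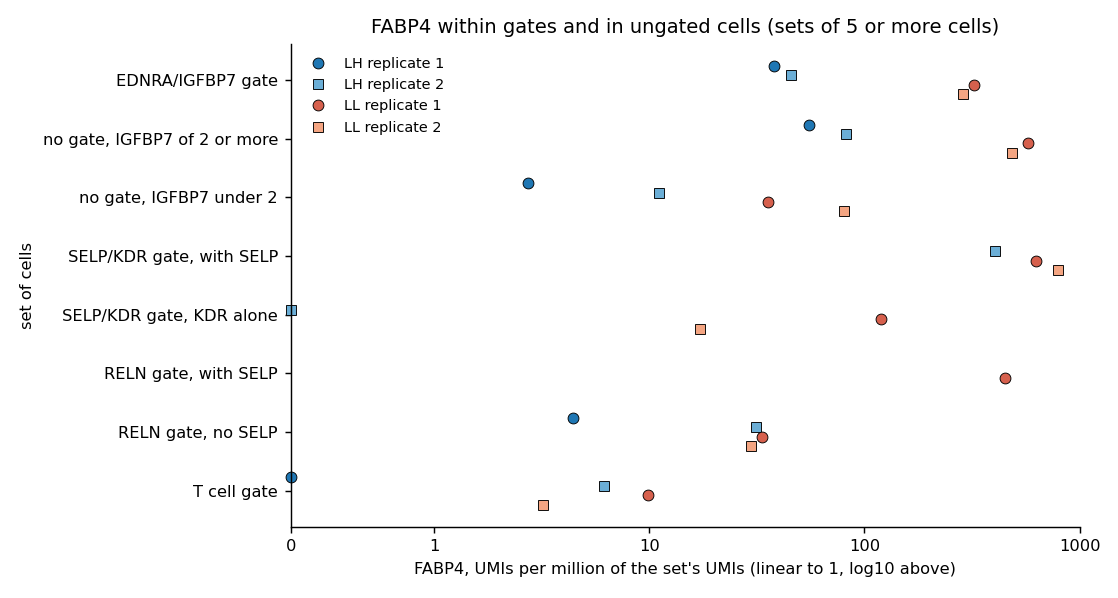
FABP4 level (CPM, linear up to 1 and on a log10 scale above) in gates, in ungated cells split by IGFBP7 and in gated cells split by SELP; each point is 1 library with at least 5 such cells, blue for LH and red for LL. Ungated cells with IGFBP7 repeat the distance between LH (55.3 and 82.5) and LL (573 and 484) seen in the EDNRA/IGFBP7 gate. SELP/KDR-gated cells with SELP stand at 629 in LL replicate 1 (400 cells). The 403 of LH replicate 2 and the 789 of LL replicate 2 rest on 5 and 8 cells. In each of these sets 1 cell held all or most of the FABP4 UMIs.

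More FABP4 UMIs lay outside the gates than in any of them. Of 11971 in all, 51.2% were in ungated cells, and 7963 came from LL replicate 1. Ungated cells with at least 2 IGFBP7 UMIs held 69.6%, 85.6%, 89.4% and 71.3% of the ungated FABP4, at 55.3, 82.5, 573 and 484 CPM. Ungated cells with fewer IGFBP7 UMIs held 2.73, 11, 35.7 and 80.6 CPM. In both sets the LL libraries stood above the LH libraries, in cells that the EDNRA/IGFBP7 gate did not use but from the same ewes.

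FABP4 was concentrated in a minority of cells. In the EDNRA/IGFBP7 gate 11.2%, 7.46%, 28.5% and 32.4% of cells had at least 1 FABP4 UMI, and after thinning to 1000 UMIs 5.84%, 3.82%, 14.5% and 18.3%. The T cell gate had 0%, 1.30%, 3.00% and 0.882%; 0 of 1535 cells allows a share of cells with a UMI of up to 0.195%. Cells with 5 or more FABP4 UMIs were 0.386%, 0.322%, 6.81% and 3.94% of the EDNRA/IGFBP7 gate and 19.2% of the SELP/KDR gate of LL replicate 1. The highest count was 88 UMIs, in a SELP/KDR-gated cell of LL replicate 1.

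Few EDNRA/IGFBP7-gated cells carried both FABP4 and LPL. After thinning, 0, 9, 5 and 8 cells had both, out of 15, 57, 168 and 171 FABP4-positive cells. LPL-positive cells were 0%, 15.8%, 2.98% and 4.68% of FABP4-positive cells and 4.55%, 9.19%, 6.86% and 7.72% of the others, lower in 3 of 4 libraries and higher in LH replicate 2. FABP4-positive cells were fewer among those with TPM1 (5.49%, 2.81%, 9.54% and 14.0%) than among those without (6.67%, 6.34%, 20.4% and 23.6%) in all 4 libraries. These shares describe cells of 1 library each and were given no test.

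Epithelial, fibroblast-marked and macrophage-marked cells held little FABP4. EPCAM/CLDN4-gated cells had 0, 0.990, 4.95 and 1.87 CPM, the lowest mean of all gates, and 0 of 255 cells in LH replicate 1 allows a share of cells with a UMI of up to 1.18%. DCN-gated cells had 6.01, 45.3, 9.16 and 7.81 CPM, where the 45.3 comes from 4 UMIs in 29 cells. C1QA-gated cells had 0, 3.60, 22.0 and 45.5 CPM. None of these gates passed against the T cell gate (log2 -1.05, 0.43 and 1.65; edgeR adjusted p = 0.309, 0.735 and 0.134). In the C1QA gate 1 cell held 15 of 32 FABP4 UMIs in LL replicate 1 and 1 cell held 9 of 19 in LL replicate 2. The 29 and 14 C1QA-gated cells with an IGFBP7 UMI held 71.9% and 89.5% of the FABP4 there.

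FABP3, the binding protein named for muscle and mammary epithelium, was low in every gate. It had 436 UMIs over all cells, of which 117 were in the EPCAM/CLDN4 gate. Its level there was 3.14, 1.94, 1.78 and 1.78 CPM, against 3.63, 4.10, 1.41 and 2.15 CPM in the T cell gate, so the ranges overlapped. EDNRA/IGFBP7-gated cells had it at 1.59, 2.18, 1.25 and 1.55 CPM. The C1QA gate had 3.54, 11.4, 4.13 and 0 CPM, and its 11.4 in LH replicate 2, from 19 UMIs in 12 cells, stood above the 4.10 of the T cell gate there. The highest sum was 22.7 CPM, from 2 UMIs in the DCN gate of LH replicate 2. No gate of 6 differed from the T cell gate in FABP3; the adjusted p of edgeR was 0.126 or more. The share of positive EPCAM/CLDN4-gated cells was 3.53%, 2.50%, 2.24% and 2.12% unthinned, and 0.395%, 0.365%, 0.321% and 0.0559% at 1000 UMIs, where the T cell gate had 0.524%, 0%, 0% and 0.604%.

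PLIN2, the lipid droplet coat, was found in every gate. EPCAM/CLDN4-gated cells had 65.5, 100.4, 50.9 and 81.3 CPM and EDNRA/IGFBP7-gated cells 54.8, 112, 63.6 and 78.5 CPM, and these gates did not differ (log2 of EDNRA/IGFBP7 minus EPCAM/CLDN4 -0.17 ± 0.25, edgeR adjusted p = 0.607). The T cell gate had 12.2, 25.6, 13.4 and 15.0 CPM, below both in every library. The EPCAM/CLDN4 gate stood 2.17 ± 0.29 above the T cell gate on the log2 scale (edgeR adjusted p = 9.29e-07) and the EDNRA/IGFBP7 gate 2.00 ± 0.29 (edgeR adjusted p = 3.54e-06).

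Counted in UMIs per 100 cells in place of CPM, PLIN2 was highest in the EPCAM/CLDN4 gate. EPCAM/CLDN4-gated cells held 115, 132, 64.2 and 102 PLIN2 UMIs per 100 cells, EDNRA/IGFBP7-gated cells 26.6, 33.2, 21.7 and 21.1, and T cell-gated cells 4.82, 8.14, 4.08 and 4.12. The EPCAM/CLDN4 gate held 46.4% of the 10889 PLIN2 UMIs. Its cells also held more UMIs of all genes, so the per-cell gap is not seen in CPM. Positive cells were 38.0%, 55.1%, 33.6% and 45.0% of the EPCAM/CLDN4 gate unthinned and 6.72%, 9.08%, 4.81% and 8.44% at 1000 UMIs. EDNRA/IGFBP7-gated cells were positive in 5.84%, 10.4%, 4.75% and 7.06% of cases at 1000 UMIs, and T cell-gated cells in 1.51%, 1.97%, 1.31% and 1.21%.

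Single epithelial cells with much PLIN2 were few. The top 10% of EPCAM/CLDN4-gated cells held 65.4%, 47.3%, 56.1% and 51.1% of the gate's PLIN2 UMIs, and the maximum was 40 UMIs in a cell of LH replicate 1. In no EDNRA/IGFBP7-gated cell did the count exceed 4. Epithelial cells with more LTF than SPP1 UMIs (lactoferrin against osteopontin, both secreted into milk) were PLIN2-positive in 2.86%, 5.85%, 4.94% and 6.47% of cases at 1000 UMIs, and the other epithelial cells in 7.34%, 9.39%, 4.72% and 12.0%, higher in 3 of 4 libraries.

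Mean PLIN2 levels of the remaining gates were lower than in the EPCAM/CLDN4 and EDNRA/IGFBP7 gates. The RELN gate lay below the T cell gate in LH replicate 1 and LL replicate 2. The SELP/KDR gate had 89.2, 30.1 and 18.8 CPM in the 3 libraries with at least 20 cells, where the 89.2 belongs to the cells with luminal milk genes in LH replicate 2. The DCN gate had 31.0, 45.3, 21.9 and 64.0 CPM, the C1QA gate 43.4, 44.4, 26.2 and 31.1, and the RELN gate 8.86, 60.4, 17.8 and 13.9. The SELP/KDR, C1QA and DCN gates were higher than the T cell gate (log2 1.15 ± 0.35, 1.12 ± 0.31 and 1.05 ± 0.31; edgeR adjusted p = 0.0113, 0.00519 and 0.00631), and the RELN gate did not pass (0.21 ± 0.36, 0.682). Each of these calls was lost without 1 or more single libraries: the SELP/KDR gate without LH replicate 2 (log2 0.83, adjusted p = 0.14) or LL replicate 1 (0.99, 0.152), the C1QA gate without LH replicate 1 (0.85, 0.0887), and the DCN gate without LL replicate 2 (0.64, 0.0916).

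The order of the gates for PLIN2 was EDNRA/IGFBP7 (mean 77.4 CPM), EPCAM/CLDN4 (74.5), SELP/KDR (46.0), DCN (40.6), C1QA (36.3), RELN (25.2) and T cell (16.6). Of neighbours, EPCAM/CLDN4 and SELP/KDR differed (log2 1.02 ± 0.32, edgeR adjusted p = 0.0176; 17.5% of all genes called higher), and so did C1QA and RELN (0.91 ± 0.34, 0.0363; 21.0% called higher). The first was lost without LL replicate 1 (1.14, 0.129) or LL replicate 2 (0.67, 0.126). The second was lost when LH replicate 1 was left out (0.58, 0.254), and likewise for LL replicate 1 (1.25, 0.051) and for LL replicate 2 (0.80, 0.0548).

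**Figure D3:**
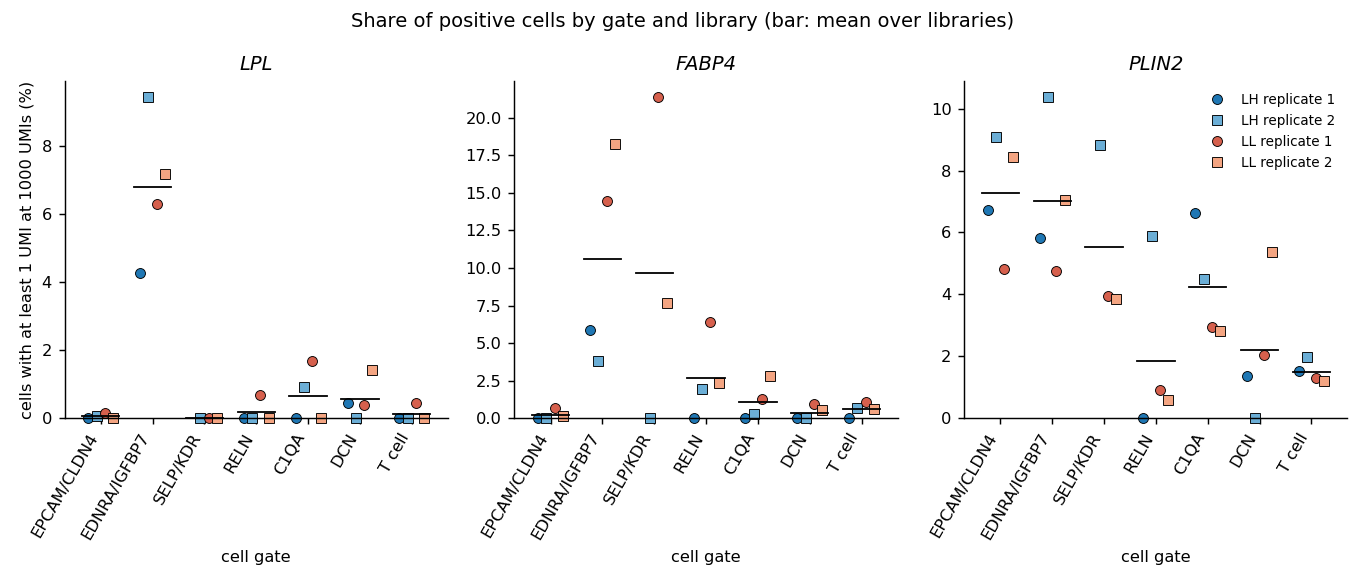
Percentage of cells with at least 1 UMI of LPL, FABP4 or PLIN2 after each cell was thinned to 1000 UMIs, by gate; each point is 1 library with at least 20 gated cells, blue for LH and red for LL, and bars are means over libraries. LPL-positive cells stand out in the EDNRA/IGFBP7 gate (4.28% to 9.44%), and so do FABP4-positive cells. In the SELP/KDR gate FABP4-positive cells stand out in LL alone (21.4% and 7.69%), with 0% in LH replicate 2. PLIN2-positive cells reach similar shares in the EPCAM/CLDN4 and EDNRA/IGFBP7 gates.

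RNA released from broken cells enters all droplets, so each gate was set beside what free RNA of EDNRA/IGFBP7-gated cells would give. The UMIs expected were the TPM1 UMIs of a gate times the ratio of the gene to TPM1 in the EDNRA/IGFBP7 gate of the same library, summed over libraries. The same was done with IGFBP7, a gating gene, in place of TPM1. Either gene may also be a gate's own, and the expected numbers differed between them by up to several fold, so they are rough. In the T cell gate 6 LPL UMIs were counted, with 6.07 expected by TPM1 and 3.67 by IGFBP7. For FABP4, 23 UMIs were counted, with 15.0 expected by TPM1 and 7.71 by IGFBP7. PLIN2 had 132 UMIs there with 7.40 expected by TPM1 and 4.49 by IGFBP7, far more than this source would give at either scaling. The EPCAM/CLDN4 gate, which held 46.4% of the PLIN2 UMIs, was not reckoned as a source, here or for the other gates.

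The same reckoning separated the other gates. FABP4 had 2084 UMIs in the SELP/KDR gate with 47.3 expected by TPM1 and 354 by IGFBP7, and 736 in the RELN gate with 94.3 and 280 expected. By TPM1 it had 106 in the EPCAM/CLDN4 gate with 1140 expected, in the DCN gate 99 with 631 expected, and in the C1QA gate 57 with 28.9 expected. LPL, by TPM1, had 51 UMIs in the C1QA gate with 12.2 expected, 70 in the DCN gate with 124 expected and 95 in the EPCAM/CLDN4 gate with 566 expected. With IGFBP7 the EPCAM/CLDN4 gate had 68.8 LPL UMIs expected, fewer than the 95 counted, and 119 FABP4 UMIs expected. At both scalings LPL and FABP4 counts of the DCN gate stayed below the expected number and those of the C1QA gate above it. PLIN2 had 5051 UMIs in the EPCAM/CLDN4 gate with 686 expected, 174 in the C1QA gate with 14.7 expected, 142 in the SELP/KDR gate with 12.4 expected and 393 in the DCN gate with 143 expected, all by TPM1. By IGFBP7 the expected PLIN2 numbers were 84.0, 15.7, 74.7 and 257 in these gates, and 75.7 in the RELN gate beside 77 counted.

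For FABP4 the SELP/KDR gate has the highest mean level, over 1 LH and 2 LL libraries. As the source it gave 0 expected UMIs in the T cell gate, where no SELE was counted. Counted there were 17 FABP4 UMIs in the 2 libraries that could be scaled. In the RELN gate the same source gave 774 expected beside 730 counted. With SELP as the scaling gene 655 were expected beside 735 counted in 3 libraries. These sums are those of LL replicate 1, which had 713 FABP4 UMIs with 774 expected by SELE and 654 by SELP. The RELN gate of LL replicate 2 had 17 with 0 and 0.507 expected, and that of LH replicate 2 had 5 with 0.667 expected by SELP. The part of free RNA and of shared droplets was not tested.

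**Figure D4:**
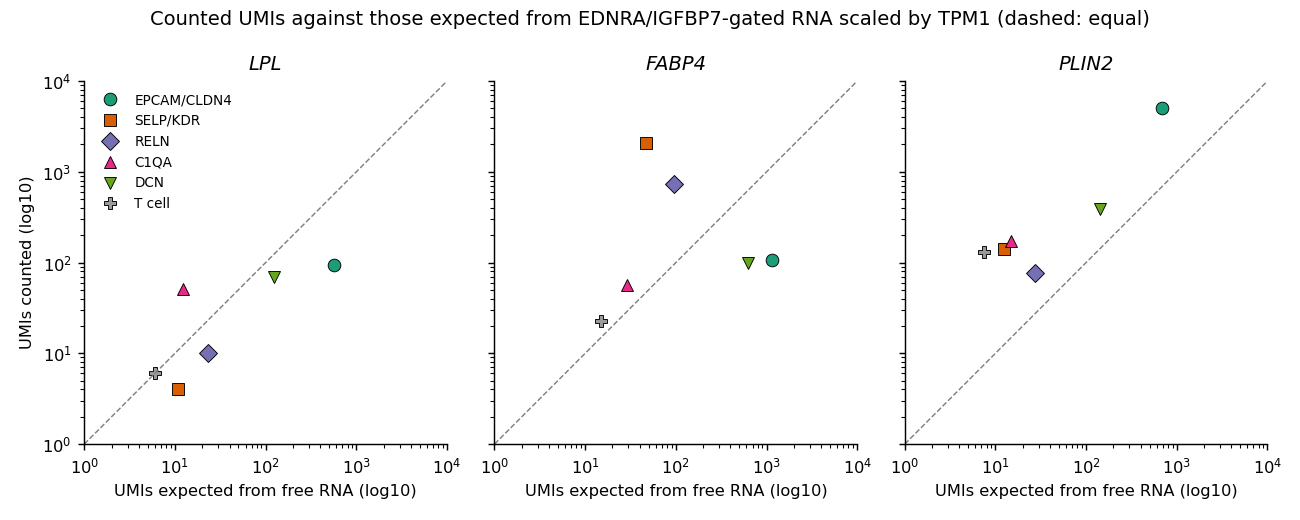
UMIs of LPL, FABP4 and PLIN2 counted in each gate (vertical, log10) against UMIs expected if all came as free RNA from EDNRA/IGFBP7-gated cells in proportion to TPM1 (horizontal, log10), summed over the 4 libraries; the dashed line marks equal numbers. At this scaling LPL in the T cell gate lies on the line (6 and 6.07). FABP4 in the SELP/KDR gate lies far above it (2084 and 47.3), and PLIN2 lies above it in every gate. With IGFBP7 as the scaling gene 3.67 LPL UMIs were expected in the T cell gate, and PLIN2 in the RELN gate was at 77 beside 75.7 expected. Free RNA of EPCAM/CLDN4-gated cells was not reckoned.

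Late and peak lactation were then compared within each gate by edgeR's quasi-likelihood test over all genes of the gate, 2 libraries against 2, each from its own ewe. None of the 4 genes passed in any of the 6 gates tested, and few genes did at all. In the EDNRA/IGFBP7 gate 1 of 10419 genes passed (0.00960%) and 620 had an unadjusted p under 0.05; DESeq2 called 30. In the EPCAM/CLDN4 gate 1 of 12883 passed (0.00776%), and 1144 had an unadjusted p under 0.05; DESeq2 called 221. The C1QA gate had 0.0121% called, the DCN gate 0.0103%, the T cell gate 0.0399% and the RELN gate 0%, with 226 genes in the RELN gate at an unadjusted p under 0.05 and 1 called by DESeq2. The SELP/KDR gate was not tested, since LH replicate 1 had 2 cells.

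FABP4 in the EDNRA/IGFBP7 gate came closest. Its level was 41.8 ± 5.22 CPM in LH and 305 ± 26.5 CPM in LL (SD, n = 2 each), a log2 difference of 2.89 ± 0.20 (SE; unadjusted p = 1.16e-05, edgeR adjusted p = 0.0605). The ranges did not overlap and the difference was far larger than the spread within a stage, but the adjusted value missed the threshold of 0.05. The call depended on the setting while the size did not: the log2 difference ran from 2.48 to 3.33 over all settings tried. DESeq2 gave an adjusted p of 1.91e-17, and edgeR passed it without the filter on low counts (3.15e-07), without LH replicate 1 (3.21e-08), without LH replicate 2 (0.00016), without cells carrying luminal milk RNA (0.0302) and with replicate numbers crossed as a block (0.0199). It missed without LL replicate 1 (0.99956), without LL replicate 2 (0.674), with the replicate number as a block (0.255), with stricter gates (0.851), with looser gates (0.1004) and with equal numbers of cells (0.0895).

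The share of FABP4-positive cells separated the stages too. After thinning to 1000 UMIs it was 4.83% in LH and 16.4% in LL on average, a difference of 11.6 percentage points with no overlap (two-sided exact permutation p = 0.333, the smallest that 2 against 2 libraries allow). The make-up of the gate differed as well: cells with TPM1 numbered 182, 1068, 629 and 515 after thinning, and cells without it 75, 426, 530 and 420. FABP4-positive shares were 5.49%, 2.81%, 9.54% and 14.0% with TPM1 and 6.67%, 6.34%, 20.4% and 23.6% without. The part of this make-up in the difference was not tested. In the other gates the fitted LL minus LH differences of FABP4 were 3.80 ± 0.82 (C1QA), 3.15 ± 1.32 (RELN), 2.32 ± 1.00 (EPCAM/CLDN4) and -0.45 ± 0.78 (DCN) on the log2 scale, with edgeR adjusted p = 0.579, 0.990, 0.587 and 0.99986. The LH sums of the C1QA gate held 0 and 6 FABP4 UMIs and those of the RELN gate 1 and 5, so these fitted values depend on few counts. The part of free RNA in the differences of these gates was not tested. In the C1QA gate the test passed with the replicate number as a block (4.09, edgeR adjusted p = 0.000629) and without the filter (3.77, 6.3e-06), and in the RELN gate without the filter (3.33, 1.28e-05).

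A test of whether the FABP4 difference itself differed between the EDNRA/IGFBP7 gate and each other gate passed for none of them. The largest gap was to the DCN gate, at 3.76 ± 1.48 on the log2 scale (unadjusted p = 0.0223, edgeR adjusted p = 1). In that test 0.00838% of genes passed against the EPCAM/CLDN4 gate and 0% against each other gate. T cell-gated FABP4, at 0 and 6.15 CPM in LH and 9.84 and 3.22 in LL, overlapped between the stages.

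**Figure D5:**
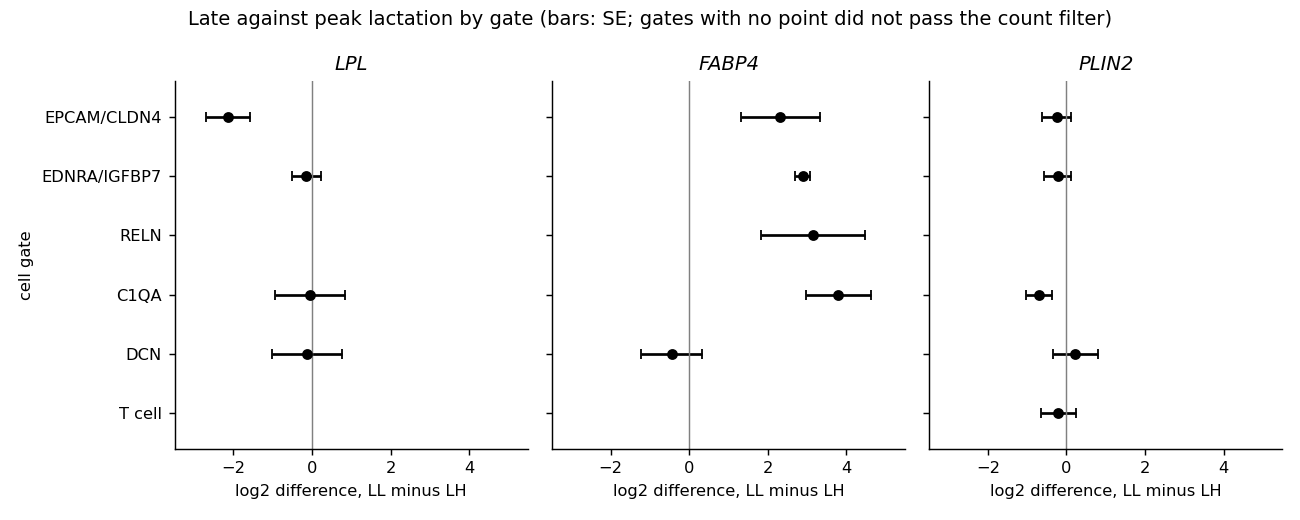
Fitted log2 difference of LL minus LH (points, with SE bars) for LPL, FABP4 and PLIN2 in each gate, 2 libraries per stage; gates in which the gene did not pass the filter on low counts have no point. FABP4 lies at 2.89 in the EDNRA/IGFBP7 gate with the narrowest bar and at -0.45 in the DCN gate, and no point passed the adjusted threshold in the test as designed.

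LPL did not separate the stages where it was highest. In the EDNRA/IGFBP7 gate it was at 41.3 and 93.0 CPM in LH and 57.1 and 63.8 in LL, with LL inside the LH range (log2 -0.15 ± 0.37, edgeR adjusted p = 0.971), and leaving out LH replicate 2 turned the sign (0.56). In the EPCAM/CLDN4 gate the fitted difference was -2.14 ± 0.56 (unadjusted p = 0.0123, edgeR adjusted p = 0.487), between 3.33 CPM in LH and 0.693 in LL on average; none of the settings tried passed it. In the C1QA and DCN gates it was -0.05 ± 0.89 and -0.13 ± 0.88.

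PLIN2 did not separate the stages either. The log2 difference of LL minus LH was -0.25 ± 0.37 in the EPCAM/CLDN4 gate, -0.23 ± 0.34 in the EDNRA/IGFBP7 gate, -0.21 ± 0.45 in the T cell gate and 0.23 ± 0.56 in the DCN gate, with edgeR adjusted p = 0.871, 0.947, 0.989 and 0.99986. Leaving out LH replicate 2 turned the sign to 0.12, 0.38 and 0.26 in the first 3 of these gates, leaving out LL replicate 1 turned it to 0.11 in the EPCAM/CLDN4 gate, and leaving out LL replicate 2 turned it to -0.69 in the DCN gate. In the C1QA gate it was -0.70 ± 0.32 (edgeR adjusted p = 0.770), with 43.4 and 44.4 CPM in LH above 26.2 and 31.1 in LL. FABP3 could be fitted in the EPCAM/CLDN4 gate alone (-0.38 ± 0.46, edgeR adjusted p = 0.832). With 2 ewes per stage these misses do not show equal levels.

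Other genes of fatty acid handling gave the setting. Of a list of 74, 15 carried a symbol, and 12 could be fitted against the T cell gate. Higher and lower calls numbered 5 and 3 in the EDNRA/IGFBP7 gate, 5 and 4 in the EPCAM/CLDN4 gate, 6 and 0 in the SELP/KDR gate, 4 and 1 in the RELN gate, 5 and 1 in the C1QA gate and 5 and 3 in the DCN gate, out of 12 genes each. The shares of all genes called higher and lower were 29.3% and 25.5%, 33.2% and 25.9%, 22.4% and 18.5%, 24.2% and 19.8%, 22.3% and 21.1%, and 28.4% and 25.5% in the same order. FABP5, another fatty acid-binding protein, and PPARG, the nuclear receptor of adipocyte differentiation, were higher in the EDNRA/IGFBP7 gate (log2 2.79 and 3.40; edgeR adjusted p = 6.11e-06 and 4.97e-07). Neither was particular to that gate: FABP5 was also higher in the C1QA (2.83), SELP/KDR (2.02) and RELN (1.74) gates and lower in the DCN gate (-2.73), and PPARG was higher in the DCN (2.98), SELP/KDR (2.25), RELN (2.24) and C1QA (2.18) gates. FABP5 in the EDNRA/IGFBP7 gate was at 585 CPM in LH and 667 in LL on average, and its stage difference did not pass (log2 0.22, edgeR adjusted p = 0.929).

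Genes of fatty acid synthesis and desaturation were called in several gates. ACACA (acetyl-CoA carboxylase, the committed step of fatty acid synthesis), the desaturases SCD and SCD5, and ME1 (malic enzyme) were higher in the EPCAM/CLDN4 gate than in the T cell gate (log2 2.42, 4.79, 7.05 and 4.33; edgeR adjusted p = 2.31e-08, 1.83e-07, 1.3e-07 and 2.24e-08). SCD5 was also higher in the SELP/KDR (5.24), DCN (5.13) and EDNRA/IGFBP7 (5.10) gates, ME1 in the DCN (3.37) and EDNRA/IGFBP7 (2.39) gates, ACACA in the SELP/KDR (1.34), RELN (1.20) and DCN (0.85) gates, and SCD in the SELP/KDR gate (2.56). The SELP/KDR values include the 34 cells of LH replicate 2 that held luminal milk genes. The part of those cells in the SELP/KDR values was not tested. PPARG was lower in the EPCAM/CLDN4 gate (-1.71, edgeR adjusted p = 0.00196), and so were DGAT1 (-0.78, 0.0207), CPT1A (-0.88, 0.00513) and ACLY (-0.53, 0.0432). ACLY was also lower in the EDNRA/IGFBP7 (-0.94) and C1QA (-0.91) gates. DGAT1 was also lower in the EDNRA/IGFBP7 (-1.29) and DCN (-1.16) gates and higher in the C1QA gate (0.80). LIPA, the lysosomal acid lipase, had its largest difference of the 6 gates in the C1QA gate (log2 5.46, edgeR adjusted p = 3.9e-10). LIPA was also higher in the DCN (4.12), SELP/KDR (1.63) and RELN (1.27) gates. The median log2 difference over the 12 genes was 0.78 in the EPCAM/CLDN4 gate and 0.97 in the EDNRA/IGFBP7 gate, beside 0.10 and 0.04 over all genes tested. In the C1QA, SELP/KDR, RELN and DCN gates it was 1.125, 0.74, 0.59 and 0.54, beside 0.05, 0.02, 0.03 and 0.05.

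Between the stages none of these listed genes passed in any gate. In the EPCAM/CLDN4 gate 6 of 12 had a log2 difference above 0, with a median of -0.01 beside 0.00 over all genes, and in the EDNRA/IGFBP7 gate 5 of 11, with a median of 0.00 beside -0.01. ABHD5, which activates the triglyceride lipase ATGL, had the lowest p of the list in all 6 gates tested, with LL minus LH at -0.92, -0.88, -1.73, -2.21, -2.02 and -1.29 on the log2 scale in the EPCAM/CLDN4, EDNRA/IGFBP7, RELN, C1QA, DCN and T cell gates (edgeR adjusted p = 0.390, 0.834, 0.990, 0.569, 0.232 and 0.591). The next in the EPCAM/CLDN4 gate were CPT1A (-1.29, 0.390), which moves fatty acids into mitochondria, and ME1 (1.04, 0.491).

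Genes whose levels ran with each member across the 27 sums of gate and library were read from 346 genes with a symbol and a mean of at least 20 CPM. The sums share ewes and libraries, so the correlations of log2(CPM + 10) are a description. Closest to LPL were EDNRA itself (Pearson r = 0.93, a gating gene), REM1 (0.87) and SLC25A4 (0.83). Closest to FABP4 were CAV1 (0.72), the caveolar coat protein of endothelium and adipocytes, MYC (0.71) and MEF2C (0.70). Closest to PLIN2 were IDH1 (0.87), CRYAB (0.82) and IMPDH (0.76), and closest to FABP3 were RHOA (0.63), GNAI2 (0.59) and PDIA3 (0.58).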

How the data were processed

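Gene counts per cell barcode of 4 libraries, 1 per ewe, were used as deposited. They are UMI counts that the authors made with Cell Ranger (version 7.2.0 per the file headers, 5.0.1 per the submitters' processing notes, which also name STAR and Seurat 3.2.0); genome build and annotation are not given in the sources used here. Barcodes with over 20% of UMIs from 13 mitochondrial genes were removed. Doublets were scored with Scrublet in scanpy 1.11.5 (Python 3.11.15; 30 components, 2 simulated doublets per cell). Because the automatic threshold called 0 cells in LH replicate 1, the highest-scoring 0.8% per 1000 barcodes were removed (258 to 1274 per library), a rule chosen after seeing that. Libraries held 28015149 to 65339993 UMIs.

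UMIs were summed per gate and library (at least 20 cells) and tested with edgeR 4.0.16's quasi-likelihood test in R 4.3.3 (limma 3.58.1; filterByExpr, minimum count 10; threshold 0.05 on Benjamini-Hochberg adjusted p). Gates were compared with the ewe as a block; LL and LH without a block, in each gate by itself. DESeq2 1.42.0 was an alternative. On simulated data for the EDNRA/IGFBP7 gate, 85 of 100 genes changed 4-fold and 14 of 100 changed 2-fold were called between stages. Shares were thinned to 1000 UMIs per cell, leaving out shallower cells. Intervals and the limit for a count of 0 (3 counts) cover counting error only.

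The members and all gene lists were chosen with earlier results of these data known. The genes named were the 4 members, fatty acid genes from the list, and the 3 most alike in level (Pearson, 20 CPM minimum). Replicate numbers of LH and LL share only a label: same-numbered deviations correlated at -0.208 to 0.0855 across genes in the 6 gates. Of 774 symbols, 762 matched the reference gene table.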

Additional observations from a re-analysis of the deposited data

How the results depend on the processing

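Between the stages, 149 of 165 values under settings other than leaving out a library kept their direction and call. No value passed in the main fit, so a kept call is a value that still did not pass. Some of these values could not differ. Asking for 50 cells repeated the main fit in the gates with enough cells. Leaving out cells with luminal RNA did not apply to the EPCAM/CLDN4 gate. FABP4 in the EDNRA/IGFBP7 gate passed with DESeq2 (2.88), without the low-count filter (2.90), with crossed replicate numbers (2.90) and without cells with luminal RNA (2.80), and ran from 2.74 to 3.02 with single libraries left out. FABP4 also passed without the filter in the RELN (3.33) and C1QA (3.77) gates. With the replicate number as a block, FABP4 in the C1QA gate passed (4.09), LPL there turned to 0.33 and PLIN2 in the DCN gate to -0.24, while FABP4 in the EDNRA/IGFBP7 gate stayed at 2.88 without passing. With doublet calls kept, the log2 difference turned for FABP3 in the EPCAM/CLDN4 gate (0.25), LPL in the C1QA (0.43) and DCN (0.13) gates and FABP4 in the DCN gate (0.59). LPL turned to 0.52 with looser gates in the C1QA gate, and in the DCN gate to 0.20 with DESeq2 and 0.46 with crossed numbers. Leaving out single libraries gave PLIN2 -0.74 to 0.12 (EPCAM/CLDN4), -0.64 to 0.38 (EDNRA/IGFBP7), -0.69 to 0.81 (DCN) and -0.76 to 0.26 (T cell), LPL -0.59 to 0.56 (EDNRA/IGFBP7), -1.24 to 2.31 (C1QA) and -0.32 to 7.60 (DCN), and FABP4 -2.25 to 0.37 (DCN). Genes called without the filter numbered 21, 104, 250, 141, 157 and 118 in the EPCAM/CLDN4, EDNRA/IGFBP7, RELN, C1QA, DCN and T cell gates, and 0 to 735 in the EDNRA/IGFBP7 gate with single libraries left out. The block gave 44 in the C1QA and 64 in the DCN gate, and crossed numbers 5 in the EDNRA/IGFBP7 and 37 in the DCN gate.

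Between gates, 173 of 192 such values kept direction and call. With doublet calls kept, FABP4 gave 1.57 (EDNRA/IGFBP7 minus RELN, passing), -0.48 (DCN minus T cell) and 1.77 (T cell minus EPCAM/CLDN4, passing). LPL then gave -1.43 (SELP/KDR), -0.48 (EPCAM/CLDN4) and 1.45 (DCN, not passing) against the T cell gate, and PLIN2 -0.12 (RELN). Looser gates gave FABP4 1.23 (RELN minus C1QA, not passing) and 2.33 (C1QA minus T cell, passing), LPL 2.29 (RELN minus T cell, passing) and PLIN2 0.66 (C1QA minus RELN, not passing). Stricter gates gave FABP4 1.64 (EDNRA/IGFBP7 minus RELN, passing) and PLIN2 0.95 (SELP/KDR minus T cell, not passing). Without the ewe term 2.54 (FABP4, RELN minus C1QA) and, for PLIN2, 1.06 (EPCAM/CLDN4 minus SELP/KDR), 1.02 (C1QA minus RELN), 1.15 (SELP/KDR minus T cell) and 0.97 (DCN minus T cell) did not pass, nor did 0.88 (PLIN2, C1QA minus RELN) without the filter. With single libraries left out the ranges were, for FABP4, 0.79 to 2.70 (EDNRA/IGFBP7 minus RELN), 0.54 to 3.13 (RELN minus C1QA), -0.22 to 1.30 (DCN minus T cell) and 2.60 to 4.05 (RELN minus T cell). For LPL they were 1.15 to 2.54 (DCN minus EPCAM/CLDN4), -0.11 to 1.20 (SELP/KDR), -0.10 to 1.53 (EPCAM/CLDN4) and 2.44 to 3.92 (DCN), the last 3 against the T cell gate. For PLIN2 they were 0.67 to 1.24 (EPCAM/CLDN4 minus SELP/KDR), 0.58 to 1.32 (C1QA minus RELN) and, against the T cell gate, -0.085 to 0.38 (RELN), 0.83 to 1.37 (SELP/KDR), 0.85 to 1.23 (C1QA) and 0.64 to 1.26 (DCN). The LL minus LH share of FABP4-positive EDNRA/IGFBP7-gated cells was 17.6 points at 2000 UMIs and 21.1 unthinned; unthinned PLIN2 shares differed by -6.55 (EDNRA/IGFBP7) and -7.28 (EPCAM/CLDN4). The cause was not tested for any of these. Equal cell numbers could not be drawn for the SELP/KDR gate, nor 50 cells for the RELN and DCN gates. With 2 ewes per stage, and few UMIs of LPL, FABP4 and FABP3 outside their main gates, depth limits what could be detected.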
